A study of Mus musculus with 12 samples.

Results

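The lysosome and autophagy genes described here are 38 mouse genes, and their chromatin was followed through every region of the deposited table that lay within 10 kb of one of their transcription start sites (GENCODE M21, genome build GRCm38). This rule used position only and gave 182 of the 121336 regions, at least 1 for each of the 38 genes. Of these, 42 lay within 500 bp of a start site of the member gene itself and 11 within 500 bp of a start site of a neighbouring gene. These 53 are called promoter regions, and the other 129 are called distal. Chromatin accessibility had been measured by ATAC-seq, in which a transposase cuts open DNA, with the OmniATAC protocol in sorted bone marrow cells of wild-type (WT) mice and of littermates in which both copies of the upstream regulatory element (URE) of Spi1 had been deleted. Spi1 encodes the transcription factor PU.1. The mice were on a C57BL/6 background and 8 to 12 weeks old, and all cells had been enriched for c-Kit before sorting. The gate for LSK, which hold the stem cells, was Lin- Sca-1+ c-Kit+, and that for GMP, the granulocyte-monocyte progenitors, was Lin- Sca-1- c-Kit+ CD16/32+. Each of the 4 groups, named WT-LSK, WT-GMP, URE-LSK and URE-GMP, held 3 libraries from separate mice. The deletion is carried by every cell of the animal, so a change in LSK or GMP need not have arisen in that population, and each sorted gate can hold a mixture of cell states.

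Lysosomes are acidic organelles that break down proteins, lipids and carbohydrates with hydrolases such as the cathepsins. Autophagy delivers cytoplasm and organelles to them in double-membraned autophagosomes. Many promoters of both systems carry the CLEAR element, a palindromic E box bound by MiT/TFE factors such as TFEB, TFE3 and TFEC. PU.1, in contrast, is the ETS factor that binds enhancers of macrophage and granulocyte genes, several lysosomal ones among them. Sequences for the CLEAR element and for PU.1 were therefore both looked for in promoter and distal regions.

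The letters TCACGTGA, the core of the CLEAR element and its own reverse complement, stood in 8 of the 53 promoter regions (15.1%), against 1.89% of all promoter regions of the series. The promoter regions of these genes were longer, with a median of 795 bp against 650 bp. Of these 8, 7 belonged to the member gene itself, and they are shown here because they mark the promoters that hold this sequence. Each line gives 30 bases of GRCm38 in the direction of transcription, with the match in capitals. Lamp1, Gla and Ctsa held the letters at 2 places, of which 1 is given.

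Ctsb (chr14:63122430-63122459, plus strand): gcggtcaagcaTCACGTGAcgaatcagccc
Ctsa (chr2:164833749-164833778, plus strand): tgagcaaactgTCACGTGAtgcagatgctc
Ctsd (chr7:142387908-142387937, minus strand): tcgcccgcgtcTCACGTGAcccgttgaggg
Mcoln1 (chr8:3500462-3500491, plus strand): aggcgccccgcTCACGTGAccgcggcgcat
Lamp1 (chr8:13159209-13159238, plus strand): agaccctcggcTCACGTGAccggcgggcgc
Hexa (chr9:59539620-59539649, plus strand): ttccctcccgtTCACGTGAccctccgattg
Gla (chrX:134601182-134601211, minus strand): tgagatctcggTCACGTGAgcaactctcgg

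The match lay 17 bp upstream of the nearest annotated start site in Ctsb, 66 bp upstream in Ctsd, 72 bp upstream in Gla, 20 bp downstream in Mcoln1, 63 bp downstream in Lamp1 and 95 bp downstream in Hexa. In Ctsa it lay further in, 863 bp downstream. The wider letters CACGTG, which include every TCACGTGA, stood in 16 of the 53 promoter regions (30.2%), against 17.5% of all promoter regions.

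The PU.1 letters GAGGAAGT, searched on both strands, stood in 22 of the 182 regions (12.1%) against 10.5% of all regions, and 17 of the 22 were distal. Of the 22 regions, 11 fell in URE-LSK (50.0%), against 51.9% of all regions with these letters, and the matches in 9 of these are shown because they lie in regions that lost accessibility. Ulk1 held 2 matches in 1 region, and 1 of them is given. For a pair of distal regions of the lipid breakdown genes Psap and Hexa, 300 bases are given on the strand of the match, with the match in capitals.

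Psap (chr10:60273896-60274195, minus strand): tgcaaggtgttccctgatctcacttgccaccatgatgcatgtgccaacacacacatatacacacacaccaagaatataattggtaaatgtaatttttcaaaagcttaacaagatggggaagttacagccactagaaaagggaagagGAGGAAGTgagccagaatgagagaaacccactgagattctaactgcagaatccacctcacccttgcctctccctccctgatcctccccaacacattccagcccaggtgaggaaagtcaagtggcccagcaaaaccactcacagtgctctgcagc
Hexa (chr9:59544858-59545157, plus strand): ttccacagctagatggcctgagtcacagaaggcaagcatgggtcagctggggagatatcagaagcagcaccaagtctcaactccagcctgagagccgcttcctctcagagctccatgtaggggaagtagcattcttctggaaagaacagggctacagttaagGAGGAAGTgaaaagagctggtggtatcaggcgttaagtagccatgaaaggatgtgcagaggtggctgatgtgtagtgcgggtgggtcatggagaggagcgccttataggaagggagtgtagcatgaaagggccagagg

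For 7 more regions, 30 bases around the match are given in the same way. The first Ctss sequence lies in the promoter region, and the others are distal.

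Ctss (chr3:95526773-95526802, minus strand): gcatccacaatGAGGAAGTgaactttcatt
Ctss (chr3:95521083-95521112, plus strand): aagaggaggagGAGGAAGTtgaagttcaga
Ulk1 (chr5:110815587-110815616, plus strand): attaatctacaGAGGAAGTtccaggacagg
Gusb (chr5:130001518-130001547, minus strand): attcagcaaaaGAGGAAGTaaggagaggac
Tfec (chr6:16896540-16896569, plus strand): cctgtctccaaGAGGAAGTcaccccactga
Ctsc (chr7:88277380-88277409, minus strand): aattagagaaaGAGGAAGTagcttgctcag
Hexa (chr9:59536996-59537025, minus strand): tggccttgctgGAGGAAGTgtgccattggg

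Total counts were between 23072701 and 62204826 per library. Levels are given as CPM (counts scaled by TMM to a common library size), and differences as fitted log2 fold changes with their standard error. Adjusted p-values come from edgeR's quasi-likelihood test, corrected by Benjamini-Hochberg across the 121336 regions. Calls, described as rises and falls, needed an adjusted p under 0.05 together with a log2 fold change beyond 1 in either direction. Of 5 regions 12 to 17 kb upstream of the Spi1 start codon, 3 held at most 6 counts in any URE library against 115 to 2110 in each WT library, as the genotype labels state. Library correlations were between 0.958 and 0.990 within groups and between 0.637 and 0.887 between groups. The summed CPM around 5 of 6 GMP markers was 171 to 180 in WT-LSK, 139 to 194 in URE-LSK, 538 to 714 in WT-GMP and 853 to 880 in URE-GMP. That around 6 of 7 LSK markers was 483 to 506, 519 to 594, 342 to 406 and 307 to 342 in the same order. The defining markers Ly6a (Sca-1) and Fcgr3 (CD16) had no region within 5 kb. Around all 7 monocyte and macrophage markers the summed CPM was 127 to 131 in WT-LSK, 89.9 to 93.3 in URE-LSK, 150 to 189 in WT-GMP and 101 to 120 in URE-GMP. Around 5 of 6 mature neutrophil markers it was 61.8 to 82.2 in WT-GMP and 125 to 132 in URE-GMP. Other marker sums that did not overlap between genotypes were, in LSK, megakaryocyte (136 to 156 in WT, 184 to 192 in URE), erythroid (66.4 to 68.7 and 75.7 to 81.5) and mast and basophil (7.01 to 9.81 and 13.8 to 20.9). Those for T and NK cells were higher in URE and those for dendritic cells lower in both cell types, the latter by the most in GMP (36.6 to 40.9 in WT, 23.6 to 28.1 in URE). The mast and basophil sum came from Cpa3 alone, 1 of 3 markers, and the T and NK sum from Lck alone, 1 of 4. The dendritic sum came from 2 of 4. Markers within a sum could disagree. In LSK, Pf4 (22.7 CPM in WT, 16.8 in URE) and Gata1 (4.31 and 1.34) were lower in URE, and the other megakaryocyte and erythroid markers higher. Of the dendritic markers, Siglech was lower there (6.07 and 0.328) and Zbtb46 was not (23.7 and 24.8).

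The first comparison asks how the loss of the Spi1 element changed these regions in LSK and in GMP. In LSK, 61 of the 182 regions were called (33.5%), 11 higher and 50 lower in URE, against 37.5% of all regions (13.6% higher and 23.9% lower). In GMP, 62 were called (34.1%), 21 higher and 41 lower, against 39.7% of all regions (15.6% higher and 24.1% lower). The share called was thus no larger near these genes than elsewhere, and the lower share was 27.5% in LSK and 22.5% in GMP. In LSK, 24 of the 38 genes had a region that fell and 8 a region that rose, and in GMP 21 had one that fell and 15 one that rose. For 8 genes, Becn1, Ctsl, Gaa, Gabarap, Mcoln1, Tfe3, Tfeb and Tpp1, no region was called in either cell type. No such count was made over all genes, and a gene with several regions has several chances of a call. A lower level in a sorted population can stand for fewer cells in which the region was open or for less opening per cell, and these cannot be told apart here. The marker sums given above also differed between genotypes, the monocyte and macrophage sum being lower in URE in both cell types and the GMP marker sum higher in URE-GMP, and their part in these counts was not tested.

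Most of the losses and gains lay in distal regions. In LSK, 5 of the 53 promoter regions were called (9.4%), all lower, against 11.5% of all promoter regions. Of the 129 distal regions, 56 were called (43.4%), 11 higher and 45 lower, against 42.4% of all distal regions. In GMP, 5 promoter regions were called, 1 higher and 4 lower, against 13.0% of all promoter regions, and 57 distal regions (44.2%), 20 higher and 37 lower, against 44.7% of all distal regions. The share called in each class was thus near or below that of the whole table. By direction, 8.53% of the distal regions were higher and 34.9% lower in LSK, against 15.4% and 27.0% of all distal regions, and in GMP 15.5% and 28.7%, against 17.7% and 27.0%. The median log2 fold change of the promoter regions was 0.23 in LSK and 0.24 in GMP, and that of the distal regions -0.16 and -0.03, a distal minus promoter difference of -0.38 in LSK and -0.27 in GMP. Over all regions of the table the promoter medians were 0.22 and 0.16 and the distal medians 0.08 and -0.01. Without URE-LSK replicate 1 the LSK difference was -0.23. With offsets for GC content the difference turned to 0.12 in LSK and 0.05 in GMP, and with loess offsets to 0.04 and 0.12, so its sign rests on the scaling. The fallen regions outnumbered the risen ones in LSK under every scaling tried (22 higher and 43 lower with GC content offsets, 19 and 41 with loess offsets), whereas in GMP the split became 31 higher and 32 lower with GC content offsets and 28 and 31 with loess offsets.

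**Figure D1:**
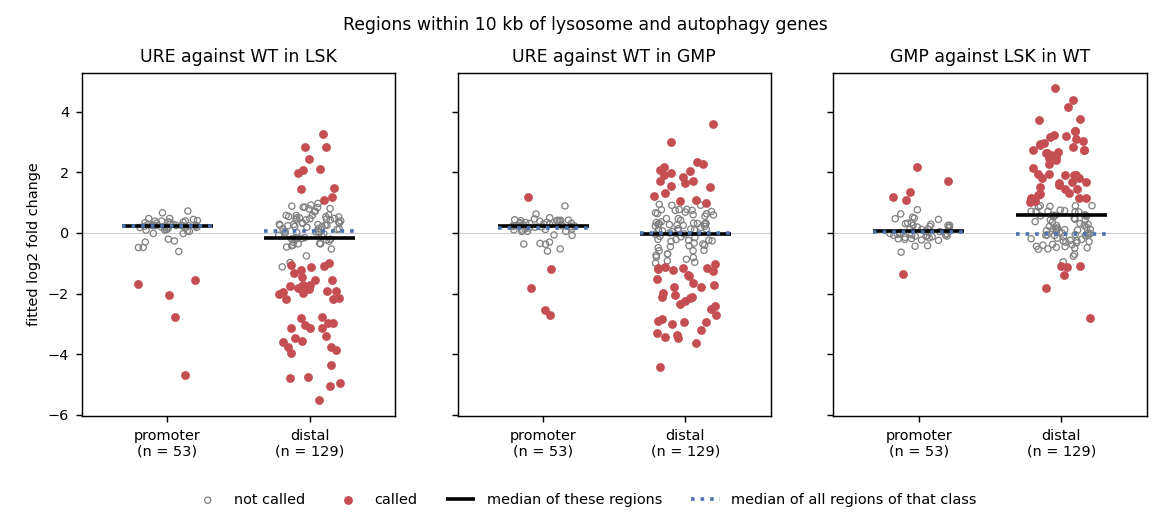
Fitted log2 fold change (vertical axis) of the 53 promoter and 129 distal regions near lysosome and autophagy genes in each of 3 comparisons. Filled points were called, black bars are the median of these regions and dotted blue bars the median of all regions of that class in the table. Promoter values gather close to 0 in each panel, distal values spread to -5.53 in LSK, and most called distal values in the right panel lie above 0.

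Of the regions called in at least 1 cell type, 34 fell in both LSK and GMP, 9 rose in both and none went in opposite directions. Of all 121336 regions, 22748 fell in both, 10253 rose in both and 194 went in opposite directions. Near these genes a further 18 were called in LSK alone, 16 of them lower, and 19 in GMP alone, 7 of them lower. The same counts over all regions were 12341 in LSK alone, 6200 of them lower, and 14964 in GMP alone, 6330 of them lower. The 2 comparisons share no library, but same-numbered LSK and GMP libraries deviated together from their group means, so they were not treated as independent.

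The share of signal in distal regions was lower in URE around these genes. The distal share of the summed CPM of the 182 regions was 22.3, 23.5 and 23.5% in the WT-LSK libraries and 18.9, 19.8 and 19.7% in those of URE-LSK. In GMP it was 29.6, 29.2 and 27.1% for WT against 25.4, 25.8 and 24.03% for URE. The URE and WT libraries did not overlap in either cell type. The promoter sum was higher in URE, at 1728 to 1779 CPM in WT-LSK against 1937 to 2134 in URE-LSK and, for GMP, 1902 to 1995 against 2256 to 2335. The distal sum was 512 to 545 CPM in WT-LSK against 476 to 506 in URE-LSK, while in GMP it overlapped, at 715 to 839 against 730 to 812. Over all regions of the table the distal share moved the same way, from between 48.5 and 50.3% to between 44.8 and 46.3% in LSK and from between 47.1 and 49.5% to between 45.7 and 46.1% in GMP.

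**Figure D2:**
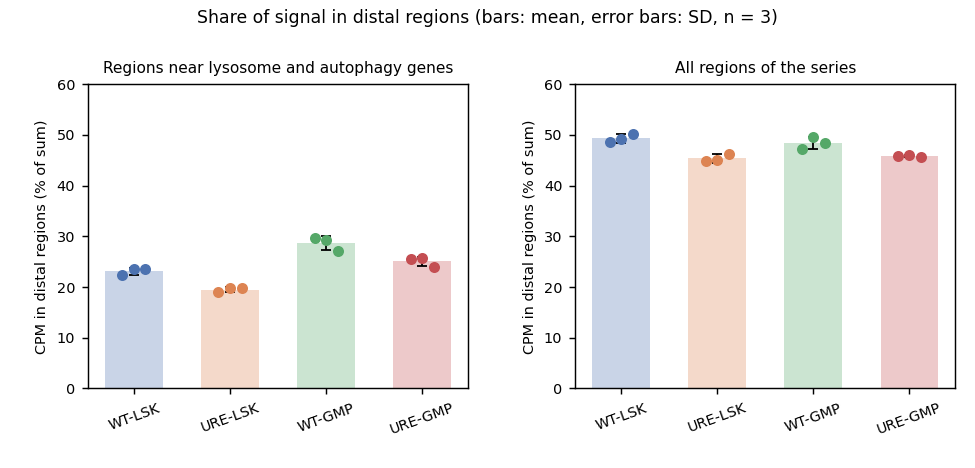
Share of summed CPM lying in distal regions (percent) for the 4 groups, around lysosome and autophagy genes (left) and over all regions (right). Points are libraries, bars means and error bars SD of 3 libraries. The distal share is lower in URE than in WT in both cell types, and around these genes it is highest in WT-GMP.

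The cathepsins and other lysosomal proteases held 43 regions, of which 6 rose and 13 fell in LSK and 6 rose and 10 fell in GMP. Over all regions 13.6% rose and 23.9% fell in LSK, and 15.6% and 24.1% in GMP. The distal median was -0.27 in LSK and -0.07 in GMP, values that turned to 0.09 and 0.26 with GC content offsets. Most of the losses lay near Ctsh, Ctss, Ctsb and Ctsz, and the gains near Ctsa, Ctsz, Ctss, Ctsd and Ctsb.

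Ctsh, which encodes a cysteine cathepsin that acts as an aminopeptidase, had the largest fall of all 182 regions in LSK, in an intron 5672 bp from the start site (chr9:90059939-90060207). The 3 WT-LSK libraries gave 3.6, 4.49 and 3.62 CPM and the URE-LSK libraries 0.0476, 0.167 and 0.0427, while WT-GMP gave 5.02, 4.18 and 3.5 and URE-GMP 0.258, 0.729 and 0.121. All URE libraries lay below all WT libraries in both cell types, with log2 fold changes of -5.53 ± 0.53 (SE; adjusted p = 3.2e-07) in LSK and -3.43 ± 0.42 (adjusted p = 4.3e-06) in GMP. A neighbouring intronic region (chr9:90060995-90061238) fell from 2.37 ± 0.668 CPM (mean ± SD) in WT-GMP to 0.213 ± 0.0649 in URE-GMP. Its fall in LSK, -1.75 ± 0.42, shrank to -0.22 with loess offsets. The Ctsh promoter was not called.

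Ctss encodes cathepsin S, a protease of antigen-presenting cells that trims the class II invariant chain. It was the only cathepsin gene whose own promoter (chr3:95526638-95526950) was called between genotypes. In LSK the CPM was 5.33, 4.85 and 3.94 in WT and 0.738, 0.893 and 0.449 in URE, and in GMP it was 4.18, 4.28 and 3.46 in WT and 0.732, 0.937 and 0.315 in URE. The URE libraries lay below the WT libraries in both cell types at this promoter, with log2 fold changes of -2.77 ± 0.32 (adjusted p = 2.1e-06) in LSK and -2.55 ± 0.32 (adjusted p = 5.2e-06) in GMP. The PU.1 letters printed above stand 2 bp from its annotated start site. A region 5240 bp upstream that also holds them (chr3:95521069-95521546) fell from 6.78 ± 0.84 to 0.497 ± 0.228 CPM in LSK, and in GMP from 11 ± 1.89 to 2.28 ± 1.33. Within Ctss, a region at the start site of the pseudogene Hmgb1-ps5 (chr3:95529877-95530199) fell too, with log2 fold changes of -4.70 in LSK and -2.70 in GMP. Not all Ctss regions fell. One 2283 bp upstream (chr3:95524281-95524503) rose in both cell types, from 0.556 ± 0.187 to 1.49 ± 0.126 CPM in LSK, and in GMP from 1.05 ± 0.48 to 4.22 ± 0.172.

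Ctsd encodes cathepsin D, the main aspartic protease of lysosomes, and its promoter and its distal regions gave different pictures. At the promoter (chr7:142387742-142388288) the changes were small. WT-LSK stood at 23.3, 20.8 and 22 CPM, URE-LSK at 27.5, 27.7 and 25.7, WT-GMP at 29.4, 26.1 and 27.5 and URE-GMP at 37.2, 35.6 and 36.9. URE libraries were above WT libraries in both cell types by log2 fold changes of 0.29 ± 0.08 and 0.41 ± 0.08, which were not called. An intronic region 3142 bp into the gene (chr7:142384148-142384715) had the highest CPM of the 9 regions that rose in both cell types. The libraries stood at 4.93, 4.24 and 6.31 CPM in WT-LSK against 23.7, 20.1 and 22.2 in URE-LSK, and in GMP at 1.46, 1.68 and 2.77 in WT against 7.68, 7.46 and 8.58 in URE. It rose by 2.08 ± 0.20 in LSK (adjusted p = 4e-07) and by 1.98 ± 0.22 in GMP (adjusted p = 1.6e-06), with no overlap between the genotypes. In WT it was one of the few regions that closed from LSK to GMP, with a log2 fold change of -1.38.

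A pair of regions upstream of Ctsz, a carboxypeptidase, rose as well. At chr2:174442476-174442806 the mean CPM was 0.308 ± 0.172 in WT-LSK and 2.29 ± 0.764 in URE-LSK, a log2 fold change of 2.84 ± 0.40. At chr2:174443113-174443671 the URE-LSK libraries stood at 1.5, 3.52 and 0.897 CPM against 0.42, 0.449 and 0.462 in WT-LSK, so the genotypes were apart although the URE-LSK libraries varied (2.12 ± 0.44, adjusted p = 0.0007). In GMP these rose by 1.32 and 1.54. The distal Ctsz regions inside the gene fell in LSK, from 1.54 ± 0.152 to 0.338 ± 0.102 CPM at chr2:174436108-174436627 and from 8.46 ± 1.19 to 3.03 ± 0.871 CPM at chr2:174437333-174438075.

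Ctsa encodes protective protein, a carboxypeptidase that shields other hydrolases, and an intergenic region 2362 bp upstream (chr2:164830234-164830511) had the largest rise in GMP. The 3 WT-LSK libraries gave 0.105, 0.163 and 0.0804 CPM and the URE-LSK libraries 0.714, 0.502 and 1.17, while WT-GMP gave 0.293, 0.126 and 0.161 and URE-GMP 2.09, 1.8 and 2.69. The genotypes were apart in both cell types, by 2.86 ± 0.48 in LSK (adjusted p = 8.9e-05) and, for GMP, 3.59 ± 0.42 (adjusted p = 3e-06). No library of any group was above 2.69 CPM.

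Ctsb encodes cathepsin B, a cysteine protease, and its promoter (chr14:63122270-63123212) was at 33.8 ± 0.377 CPM in WT-LSK against 36.5 ± 3.12 in URE-LSK, and at 32.6 ± 4.14 against 33.7 ± 0.86 in GMP. The fitted values of 0.11 ± 0.10 and 0.05 ± 0.10 did not pass the test, and their sign changed with the scaling. Inside the gene a region 6522 bp from the start site (chr14:63128984-63129421) fell from 2.33 ± 1.22 to 0.266 ± 0.206 CPM in LSK, and in GMP from 10.9 ± 2.18 to 2.61 ± 1.84. A region 9769 bp from the start site (chr14:63132231-63132782) went the other way in GMP, from 10.2 ± 2.25 to 21.1 ± 1.96 CPM. Ctsc, Ctsl and Tpp1 had no promoter that was called.

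The other hydrolases and the lipid-handling proteins had the largest share of lower regions among the 5 role groups, 40.5% in LSK and 38.1% in GMP, against 23.9% and 24.1% of all regions. Of their 42 regions, 2 rose and 17 fell in LSK, and 3 rose and 16 fell in GMP. The distal median was -1.12 in LSK and -0.92 in GMP, against 0.08 and -0.01 over all distal regions, and it stayed below 0 under every scaling tried, at -0.19 and -0.20 with loess offsets and at -0.82 and -0.55 with GC content offsets. Psap and Hexa gave 11 of the 17 LSK losses.

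Psap encodes prosaposin, the precursor of the saposins that help hydrolases reach sphingolipids. Of its 10 regions, 6 fell in both LSK and GMP. The intergenic region 3416 bp upstream whose sequence is given above (chr10:60273854-60274211) lost most of its signal. In LSK the CPM was 4.75, 5.51 and 4.02 in WT and 0.0714, 0.335 and 0.128 in URE, and in GMP it was 8.62, 6.0 and 5.39 in WT and 0.581, 1.04 and 0.242 in URE. Every URE library was below every WT library of the same cell type, and the log2 fold change was -4.77 ± 0.47 in LSK (adjusted p = 4.4e-07), and the GMP value was -3.36 ± 0.39 (adjusted p = 2.8e-06). An intronic region (chr10:60286581-60286975) had the largest fall in GMP. WT-LSK stood at 1.76, 3.59 and 2.33 CPM, URE-LSK at 0.19, 0.167 and 0.299, WT-GMP at 9.83, 10.5 and 8.78 and URE-GMP at 0.323, 0.729 and 0.242. The log2 fold change was -4.43 ± 0.35 in GMP (adjusted p = 8.5e-08) and -3.48 ± 0.39 in LSK.

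The 2 Psap promoters behaved differently. At the upstream start site (chr10:60277449-60278123) the mean CPM was 21.7 ± 0.981 in WT-LSK against 27.5 ± 1.44 in URE-LSK, which was not called. At an internal start site (chr10:60284220-60285275) the signal dropped. The libraries stood at 18.7, 20.03 and 15.8 CPM in WT-LSK against 6.09, 7.45 and 5.0 in URE-LSK, and in GMP at 19.7, 15.9 and 15.4 in WT against 4.56, 7.06 and 2.71 in URE. The URE libraries lay below the WT libraries in both cell types, with log2 fold changes of -1.56 ± 0.25 (adjusted p = 7.1e-05) and -1.82 ± 0.26 (adjusted p = 1.8e-05).

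Psap also held the largest rise in LSK, in an intron 7810 bp from a start site (chr10:60292271-60292583). The 3 WT-LSK libraries gave 0.0525, 0.0816 and 0.0603 CPM and the URE-LSK libraries 0.357, 0.53 and 0.961, while WT-GMP gave 0.669, 0.734 and 0.438 and URE-GMP 4.93, 5.01 and 4.89. No WT-LSK library held more than 3 counts there, 7 in all against 79 in URE-LSK, which gives a ratio of 10.2 with a 95% interval of 4.71 to 26.1 that covers counting error only. In GMP the rise was 3.01 ± 0.31 (adjusted p = 9.6e-07), and the genotypes did not overlap. A region 7621 bp upstream (chr10:60269651-60270006) rose in LSK, from 2.93 ± 0.255 to 6.76 ± 0.41 CPM, and was at 3.3 ± 0.187 and 3.23 ± 0.301 CPM in WT-GMP and URE-GMP.

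Hexa encodes the alpha subunit of beta-hexosaminidase, which removes sugars from gangliosides. Of its 9 regions 5 fell in LSK and 4 in GMP, and its promoter, which holds TCACGTGA, was at 17.6 ± 0.503 CPM in WT-LSK against 17.3 ± 1.78 in URE-LSK, and at 15.5 ± 6.14 against 16.4 ± 2.18 in GMP. The intronic region with the PU.1 letters printed above (chr9:59544699-59545157) had the third largest fall in LSK. In LSK the CPM was 4.3, 6.61 and 5.31 in WT and 0.143, 0.279 and 0.107 in URE, and in GMP it was 11.3, 16 and 11.6 in WT and 1.94, 3.99 and 0.727 in URE. The genotypes were apart in both cell types, with log2 fold changes of -4.96 ± 0.54 in LSK (adjusted p = 1.2e-06) and, for GMP, -2.52 ± 0.40 (adjusted p = 5.1e-05).

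Npc2 binds cholesterol in the lysosomal lumen and hands it to NPC1. An intronic Npc2 region (chr12:84767415-84767845) fell, with -5.06 ± 0.66 in LSK (adjusted p = 7.8e-06), and the GMP value was -3.20 ± 0.48 (adjusted p = 3.4e-05). WT-LSK stood at 3.62, 6.0 and 3.78 CPM, URE-LSK at 0.167, 0.195 and 0.0427, WT-GMP at 9.83, 15.3 and 12.9 and URE-GMP at 0.84, 2.83 and 0.339. The URE-GMP libraries differed among themselves, and the highest of them was still below the lowest WT-GMP library. The Npc2 promoter (chr12:84772754-84773426), shared with Isca2, had the highest CPM of the hydrolase promoters and was not called. In Npc1, which encodes the membrane protein that exports cholesterol, an intronic region fell in both cell types, from 17.8 ± 2.11 to 2.21 ± 1.14 CPM in LSK, and in GMP from 10.9 ± 0.806 to 3.43 ± 1.44. Near Gusb, which encodes beta-glucuronidase, a region 1756 bp into the gene (chr5:130000862-130001109) fell from 2.13 ± 0.766 to 0.148 ± 0.0446 CPM in LSK, and in GMP from 4.85 ± 0.936 to 0.482 ± 0.0651. Lipa, the acid lipase gene, had a region that fell in both (chr19:34526319-34526611), with log2 fold changes of -1.33 and -1.14. Gaa, for acid alpha-glucosidase, had no called region, and Gla, for alpha-galactosidase A, had 1, higher in GMP.

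**Figure D3:**
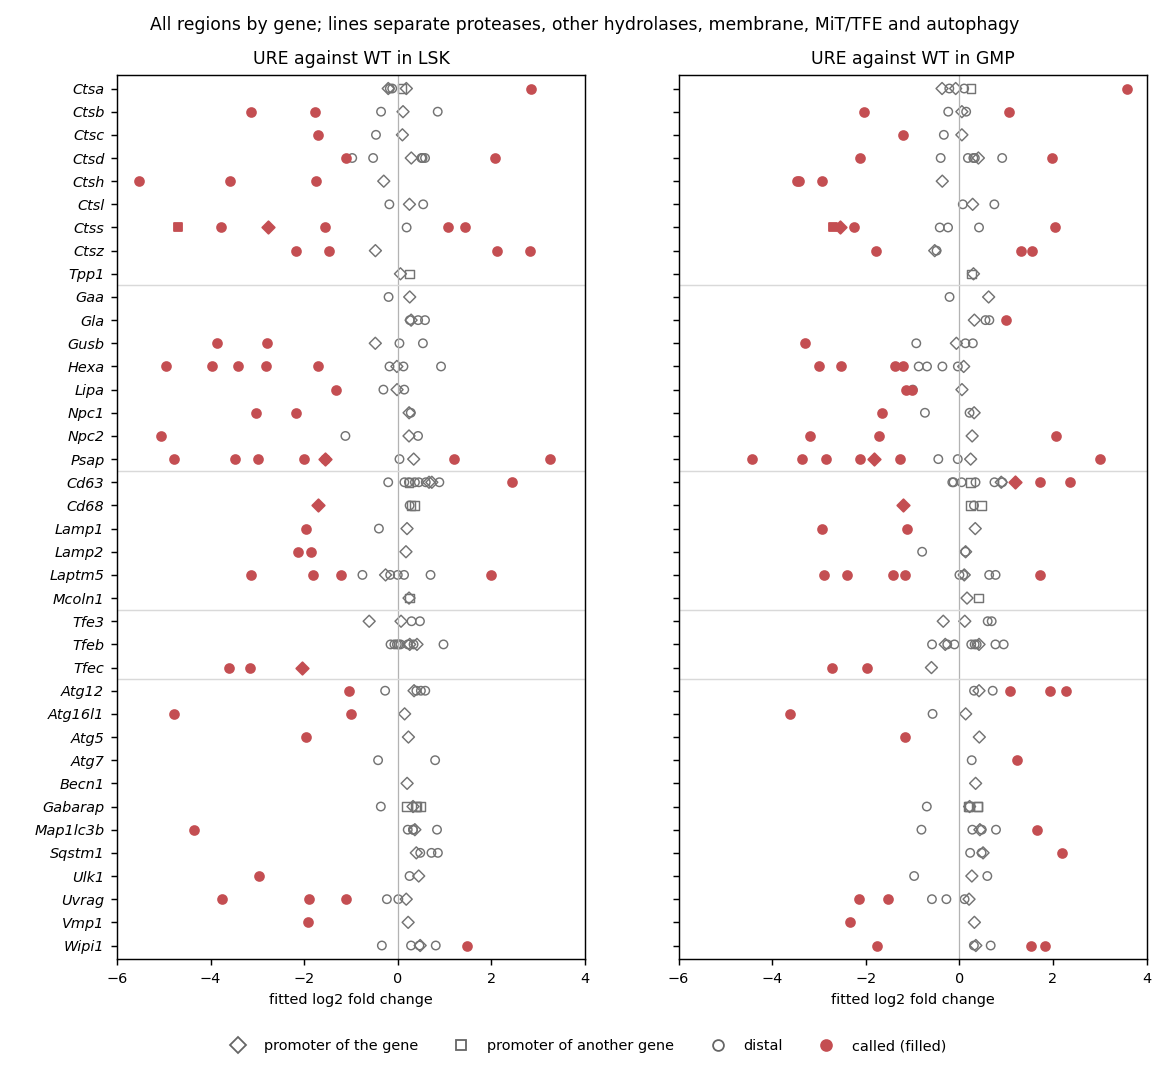
Every region by gene, with the fitted log2 fold change of URE against WT in LSK (left) and GMP (right). Diamonds are promoters of the gene, squares promoters of another gene, circles distal regions, and filled red marks were called. Called marks are mostly circles to the left of 0, densest for Psap, Hexa, Ctsh and Ctss, and the autophagy promoters at the bottom all lie slightly to the right of 0 and are open.

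The lysosomal membrane proteins had 33 regions, of which 2 rose and 7 fell in LSK and 4 rose and 7 fell in GMP. The shares of all regions were 13.6% higher and 23.9% lower in LSK and 15.6% and 24.1% in GMP. Cd68, a heavily glycosylated membrane protein used as a macrophage marker, was the only one whose own promoter (chr11:69665974-69666556) fell. The libraries stood at 12.4, 13.5 and 12.5 CPM in WT-LSK against 3.97, 4.72 and 3.12 in URE-LSK, and in GMP at 33, 33.8 and 31.3 in WT against 14.3, 19.4 and 8.82 in URE. The WT and URE libraries did not overlap in either cell type, with log2 fold changes of -1.70 ± 0.22 in LSK (adjusted p = 7.6e-06) and, for GMP, -1.20 ± 0.21 (adjusted p = 0.00012). The fall in GMP was -0.95 without URE-GMP replicate 3 and -0.87 with GC content offsets, short of the threshold of 1. The promoters of neighbouring Mpdu1 and Eif4a1 on either side were not called.

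Cd63, a tetraspanin of late endosomes and lysosomes, went the other way. It had 11 regions and none that fell. One of its 2 promoter regions (chr10:128900791-128901069) rose in GMP. The 3 WT-LSK libraries gave 2.6, 1.39 and 3.04 CPM and the URE-LSK libraries 3.93, 3.74 and 3.72, while WT-GMP gave 3.05, 1.64 and 2.14 and URE-GMP 5.25, 4.58 and 5.43. The rise was 1.18 ± 0.26 (adjusted p = 0.00097), which became 0.99 without WT-GMP replicate 2, and in LSK the value was 0.67 ± 0.26 (adjusted p = 0.038), short of the fold threshold but past it, at 1.05, with GC content offsets. A region in an untranslated exon of the neighbouring gene Rdh5 (chr10:128918468-128918688) rose in both cell types, from 0.325 ± 0.202 to 1.81 ± 0.562 CPM in LSK, and in GMP from 0.237 ± 0.0493 to 1.25 ± 0.0991.

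Lamp1 and Lamp2 encode the most abundant glycoproteins of the lysosomal membrane. The Lamp1 promoter (chr8:13158808-13159861), which holds TCACGTGA at 2 places, was at 27.7, 28.3 and 28.4 CPM in WT-LSK against 32.1, 33.9 and 30.8 in URE-LSK, and in GMP at 34.3, 25.7 and 23.6 against 33.4, 38.1 and 33.8. Neither difference was called (0.20 ± 0.12 and 0.34 ± 0.12), and the LSK value changed sign with GC content offsets. The Lamp2 promoter (chrX:38455834-38456697) gave 0.17 ± 0.13 and 0.13 ± 0.13, likewise not called. Upstream of Lamp1 a distal region (chr8:13155268-13155707) fell from 5.78 ± 1.99 to 0.723 ± 0.774 CPM in GMP, and in LSK from 0.882 ± 0.242 to 0.219 ± 0.0298. Both distal Lamp2 regions fell in LSK and neither was called in GMP. Laptm5, a lysosomal membrane protein of blood cells, had 10 regions, of which 3 fell in both cell types, the largest from 2.87 ± 0.409 to 0.326 ± 0.0795 CPM in LSK (chr4:130912222-130912482), and 1 rose in both, from 3.79 ± 0.651 to 12.4 ± 1.39 CPM in GMP (chr4:130919677-130920086). Mcoln1, the lysosomal calcium channel gene, had its own promoter and that of Zfp358 within reach, and neither was called.

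Of the MiT/TFE factors, Tfec, a member found mainly in macrophages, was the one with regions called between genotypes. All 3 Tfec regions fell in LSK, the promoter (chr6:16898321-16898808) among them. In LSK the CPM was 2.62, 3.06 and 3.56 in WT and 0.619, 0.921 and 0.705 in URE, and in GMP it was 12.6, 9.99 and 7.74 in WT and 6.74, 8.05 and 5.14 in URE. At the promoter the log2 fold change in LSK was -2.05 ± 0.26 (adjusted p = 5.7e-06), without overlap, whereas in GMP the libraries overlapped and the value was -0.60 ± 0.22 (adjusted p = 0.026), below the fold threshold and 0.06 with GC content offsets. The distal region 1568 bp into the gene that holds the PU.1 letters (chr6:16896462-16896873) fell in both, with log2 fold changes of -3.61 and -2.72. The main Tfeb promoter (chr17:47736851-47738937), with the highest CPM of these factors, was slightly higher in URE. WT-LSK stood at 82.2, 78.8 and 80.3 CPM, URE-LSK at 116, 105 and 99.6, WT-GMP at 73.4, 76.9 and 74.2 and URE-GMP at 101, 101 and 98.9. The URE libraries were above the WT libraries in both cell types by 0.41 ± 0.07 (adjusted p = 5.6e-05) and 0.42 ± 0.07 (adjusted p = 4.5e-05), under the fold threshold. The Tfe3 promoter (chrX:7762357-7763031) was at 21.8 ± 0.447 and 22.9 ± 2.86 CPM in LSK and at 21.5 ± 3.69 and 23.3 ± 1.98 in GMP, with no value past the test and signs that changed with the scaling.

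The 12 autophagy genes held 47 regions. In LSK 1 rose and 10 fell, against 13.6% higher and 23.9% lower of all regions. In GMP 8 rose and 6 fell, against 15.6% and 24.1%. All of these called autophagy regions were distal. None of the 15 promoter regions was called in either cell type, against 11.5% of all promoter regions in LSK and 13.0% in GMP, shares at which few calls would fall among 15 regions. The median log2 fold change of these 15 was 0.35 in LSK and in GMP, against 0.22 and 0.16 for all promoter regions. It stayed above 0 under every scaling tried, at 0.09 and 0.16 with loess offsets. The median of all promoter regions stayed above 0 as well, at 0.05 and 0.02 with loess offsets, so the sign is not particular to these genes. Over all 53 promoter regions of the 38 genes, 34 passed an adjusted p of 0.05 at any fold in LSK, 24 of them higher, against 50.2% of all promoter regions, and 32 did in GMP, 25 of them higher, against 50.9%. Most promoter regions of the whole table that passed were higher too, 7401 of 9601 in LSK and 6722 of 9729 in GMP.

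Vmp1, a membrane protein of the endoplasmic reticulum needed to form autophagosomes, shares its promoter with Ptrh2 (chr11:86683448-86684322). The libraries stood at 25.5, 24.1 and 26.2 CPM in WT-LSK against 29.1, 33.1 and 26.3 in URE-LSK, and in GMP at 32.8, 27.1 and 23.3 in WT against 32.8, 36.8 and 33.9 in URE. The URE libraries lay above the WT libraries in both cell types by a narrow margin, and neither difference was called (0.22 ± 0.12 with adjusted p = 0.12 in LSK, 0.32 ± 0.12 with adjusted p = 0.027 in GMP). A distal Vmp1 region (chr11:86692009-86692246) fell, from 1.03 ± 0.212 to 0.278 ± 0.0767 CPM in LSK, and in GMP from 1.74 ± 0.561 to 0.335 ± 0.137. For Atg7, the activating enzyme of the autophagy conjugation systems, no region of the table lay within 500 bp of a start site. Its 2 distal regions were not called in LSK, and 1 of them (chr6:114644601-114644883) rose in GMP, from 4.62 ± 1.03 to 10.9 ± 1.12 CPM.

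Sqstm1 encodes p62, the receptor that carries ubiquitinated cargo to autophagosomes. Its promoter (chr11:50209782-50211189) was at 56.9, 57.8 and 57.4 CPM in WT-LSK against 81.7, 71.3 and 73.3 in URE-LSK, and in GMP at 70.6, 62.4 and 67.6 against 93, 94.4 and 97.1. The genotypes did not overlap, and the values of 0.40 ± 0.07 and 0.51 ± 0.07 were under the fold threshold. A region in a coding exon at the far end of the gene (chr11:50200656-50200962) rose in GMP. The 3 WT-LSK libraries gave 0.42, 0.286 and 0.503 CPM and the URE-LSK libraries 0.262, 0.53 and 0.94, while WT-GMP gave 2.26, 3.44 and 2.65 and URE-GMP 12.1, 12.6 and 13.5. The rise in GMP was 2.18 ± 0.27 (adjusted p = 6e-06), and the LSK libraries overlapped.

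Map1lc3b encodes LC3B, the ubiquitin-like protein attached to autophagosome membranes. Its promoter (chr8:121590192-121591139) was slightly higher in URE, by 0.36 ± 0.07 in LSK (adjusted p = 0.00056), and the GMP value was 0.44 ± 0.07 (adjusted p = 9.9e-05). A region 9526 bp upstream, in an intron of Gm20388 (chr8:121580462-121580835), lost most of its signal in LSK. In LSK the CPM was 4.78, 6.49 and 5.33 in WT and 0.167, 0.391 and 0.256 in URE, and in GMP it was 5.98, 8.27 and 5.3 in WT and 4.13, 5.17 and 1.79 in URE. The log2 fold change was -4.35 ± 0.40 in LSK (adjusted p = 2.2e-07) and, for GMP, -0.81 ± 0.30 (adjusted p = 0.03), the latter under the fold threshold but -1.13 without URE-GMP replicate 2. The nearest start site to this region is that of Gm17786.

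ATG16L1 brings the ATG12-ATG5 conjugate to the forming membrane, and an Atg16l1 intron held one of the deepest losses (chr1:87765802-87766170). WT-LSK stood at 6.17, 4.69 and 3.44 CPM, URE-LSK at 0.119, 0.251 and 0.15, WT-GMP at 5.61, 5.14 and 6.27 and URE-GMP at 0.344, 0.659 and 0.339. The log2 fold change was -4.79 ± 0.36 in LSK (adjusted p = 2.7e-08), and the GMP value was -3.62 ± 0.30 (adjusted p = 1.6e-07), and no URE library reached a WT library. Uvrag, which regulates the class III phosphatidylinositol kinase complex with Beclin 1, had a region that fell from 5.99 ± 0.794 to 0.441 ± 0.0843 CPM in LSK, and in GMP from 11 ± 0.966 to 2.48 ± 0.817 (chr7:99146924-99147245). Ulk1, the kinase that starts autophagy, had a distal region with 2 copies of the PU.1 letters that fell from 1.01 ± 0.136 to 0.13 ± 0.0928 CPM in LSK and was not called in GMP (chr5:110815517-110815788). Gains in GMP lay near Atg12 and Wipi1. A region in the Atg12 untranslated exon went from 0.437 ± 0.112 to 2.15 ± 0.438 CPM. Another in an intron of neighbouring Ap3s1 went from 6.64 ± 0.961 to 14 ± 1.69 CPM. Near Wipi1, a phosphoinositide-binding protein of early autophagosomes, a region (chr11:109609947-109610180) rose by 1.53. Of the 6 Wipi1 regions, 2 rose and 1 fell in GMP, the last with a log2 fold change of -1.77.

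**Figure D4:**
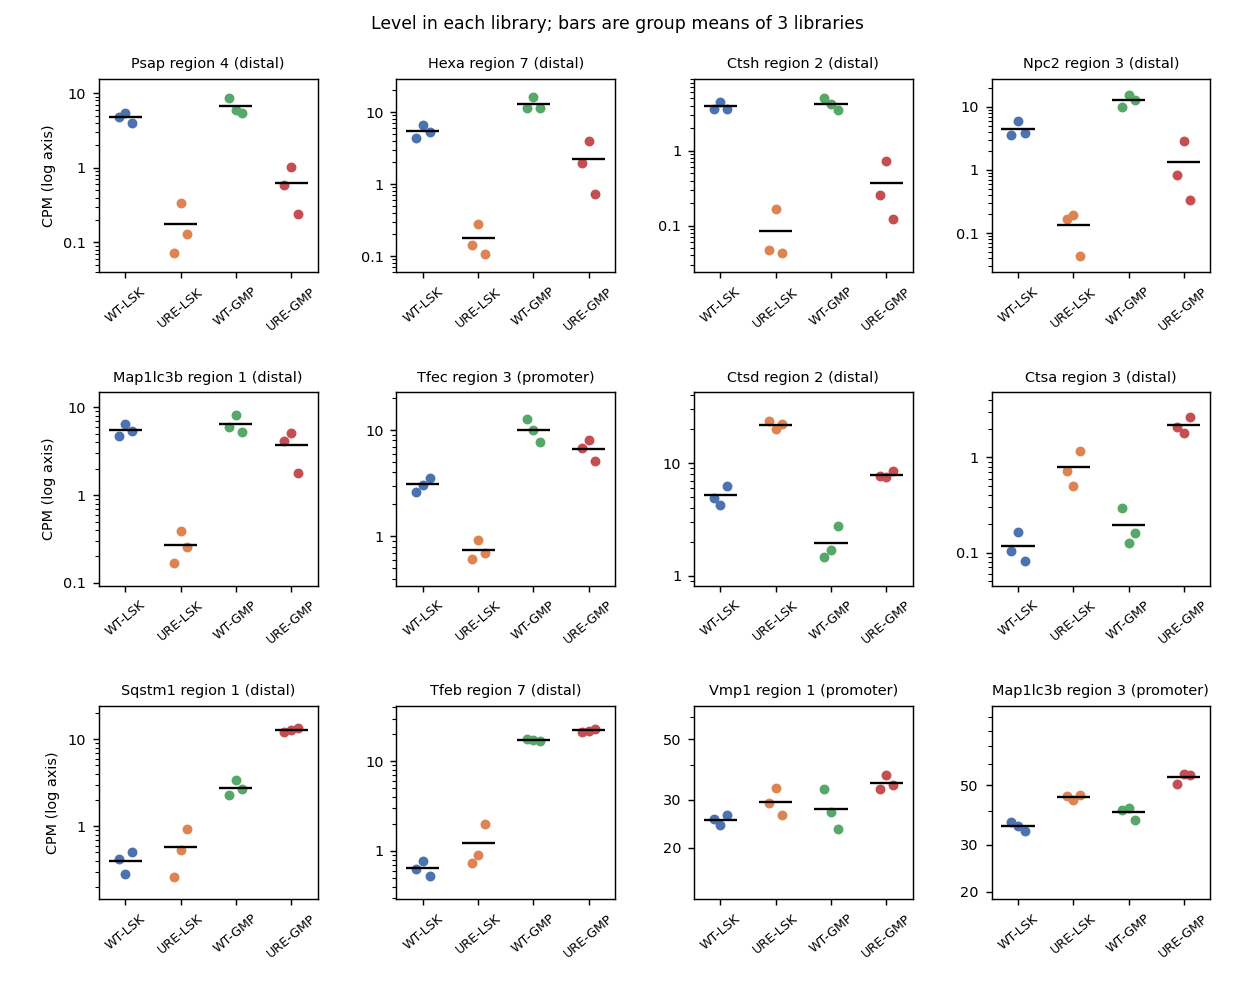
CPM on a log axis in each of the 12 libraries for 12 regions, with short bars for group means of 3 libraries and regions numbered along the chromosome for each gene. The upper row shows distal regions that fell in URE-LSK and URE-GMP, the middle row 2 regions that fell mainly in LSK and 2 that rose, and the lower row a region that rose in URE-GMP, a Tfeb region open in GMP of both genotypes and 2 promoters that stay within a narrow range.

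Near these genes, distal regions that hold the PU.1 letters included losses and no gains. Of the 17 distal regions that hold them, 10 fell and none rose in LSK, and 7 fell and none rose in GMP. Of the 112 distal regions without them, 35 fell and 11 rose in LSK, and 30 fell and 20 rose in GMP. The medians were -1.72 and 0.04 in LSK and -0.92 and 0.12 in GMP. Among all distal regions within 10 kb of any start site, 2710 of the 4791 with the letters fell in LSK (56.6%) and 133 rose, with a median of -1.34 against 0.15 without them. In GMP 2355 fell (49.2%) and 194 rose, with medians of -0.98 and 0.10. The shares that fell among the 17 regions near these genes were 58.8% and 41.2%. Among promoter regions of these genes, 5 held the letters and 1 of them, that of Ctss, was called. None of the 8 promoter regions with TCACGTGA and none of the 16 with CACGTG was called in either cell type. Of all promoter regions 11.5% were called in LSK and 13.0% in GMP, so few calls would fall among so few regions. Those with TCACGTGA had a median of 0.19 in LSK and 0.18 in GMP, against 0.22 and 0.16 for all promoter regions.

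**Figure D5:**
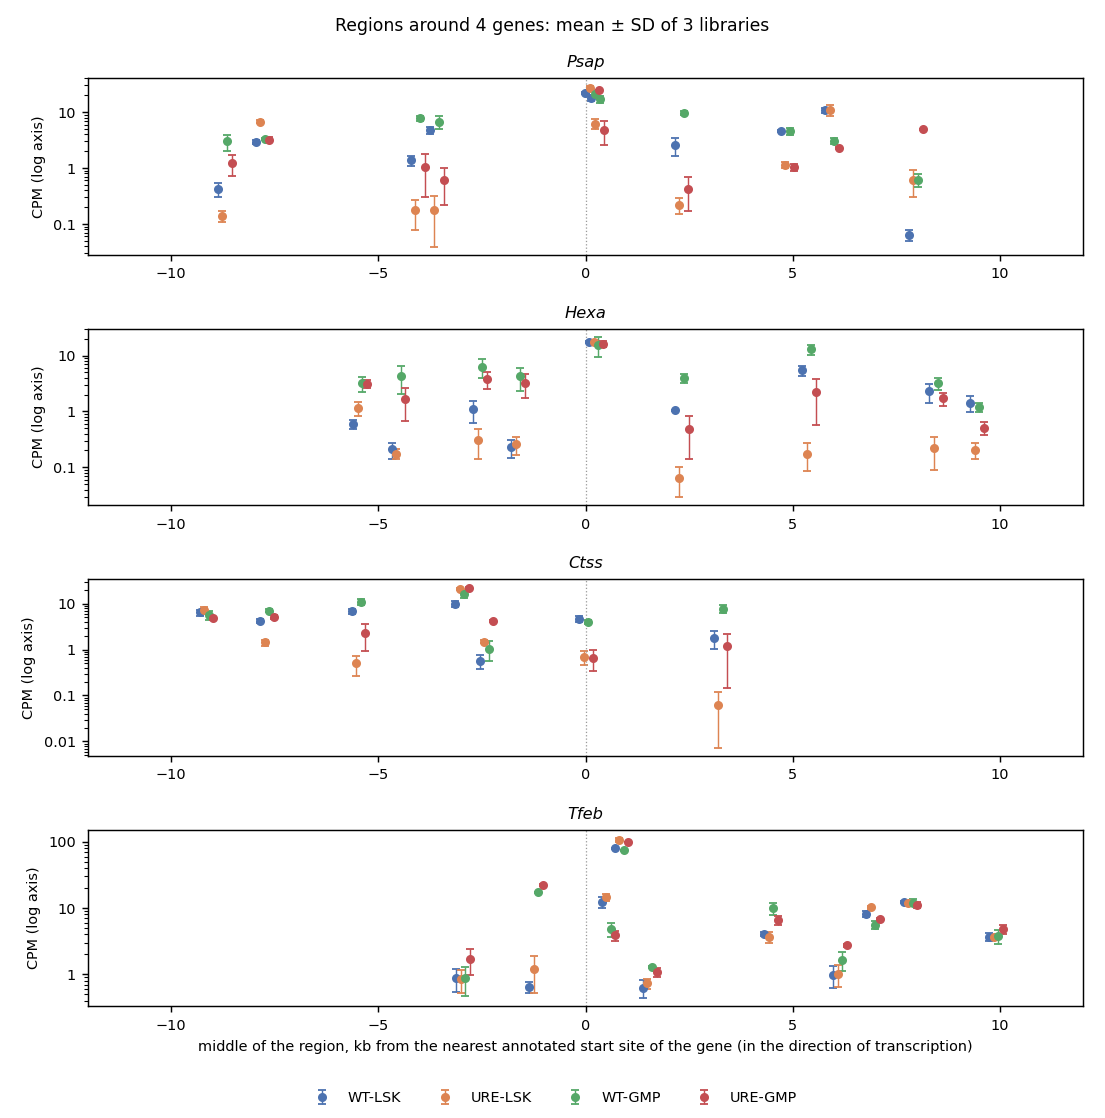
Mean CPM ± SD of 3 libraries (log axis) of every region around Psap, Hexa, Ctss and Tfeb, placed by the distance in kb from the nearest annotated start site, with the 4 groups side by side. Inside Psap and Hexa most distal URE points lie below the WT points of the same cell type while the points at the Hexa start site stay together, and around Tfeb the genotypes lie close together.

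The genotype effect differed between LSK and GMP at 23 of the 182 regions (12.6%), 18 with a higher value in GMP and 5 with a lower one, against 14.0% of all regions (8.96% higher and 5.03% lower). Among promoter regions 1 was called, against 4.95% of all promoter regions, and among distal regions 22, against 15.7% of all distal regions. The count fell to 12 without URE-LSK replicate 1. The largest difference was at the upstream Map1lc3b region, where the effect in GMP minus that in LSK was 3.54 ± 0.51 (adjusted p = 0.00031). The Tfec promoter, with 1.45 ± 0.34 (adjusted p = 0.0082), was the 1 promoter called. A Hexa intronic region (chr9:59547859-59548139) fell in LSK, from 2.29 ± 0.863 to 0.219 ± 0.128 CPM, and was not called in GMP, at 3.17 ± 0.734 in WT and 1.71 ± 0.443 in URE, a difference of 2.54 ± 0.54 (adjusted p = 0.0046). In the opposite direction, a region upstream of Laptm5 (chr4:130905929-130906661) fell in GMP and was not called in LSK. The libraries stood at 4.09, 4.98 and 4.42 CPM in WT-LSK against 3.38, 2.57 and 2.03 in URE-LSK, and in GMP at 7.28, 4.7 and 3.83 in WT against 0.689, 1.34 and 0.896 in URE. The difference there was -1.65 ± 0.40 (adjusted p = 0.01).

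The next comparison asks how these regions changed from LSK to GMP in WT mice. More of them opened than closed. Of the 182 regions, 62 were called (34.1%) against 37.8% of all regions, but 55 rose (30.2%) against 21.0% of all regions, and 7 fell (3.85%) against 16.8%. The median was 0.29 over these regions and -0.01 over all regions. Among promoter regions 5 rose and 1 fell, against 13.5% of all promoter regions called in either direction, and among distal regions 50 rose and 6 fell, against 42.4% of all distal regions called. Under the other scalings between 52 and 55 rose. A region near 26 of the 38 genes rose. The same count was not made over all genes, and a gene with several regions has several chances to rise. By role group, 12 of 43 protease, 15 of 42 hydrolase and 9 of 33 membrane regions were higher in GMP. So were 5 of 17 MiT/TFE and 14 of 47 autophagy regions, against 21.0% of all regions. The GMP marker signal given above rose between the same groups, and its part in these counts was not tested.

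The largest opening lay in a Tfeb intron, 871 bp upstream of an annotated internal start site (chr17:47784197-47784849). The 3 WT-LSK libraries gave 0.63, 0.775 and 0.523 CPM and the URE-LSK libraries 0.738, 0.893 and 2.01, while WT-GMP gave 17.7, 17.3 and 16.8 and URE-GMP 21.4, 22.1 and 23.3. The WT-GMP libraries were far above the WT-LSK libraries, by 4.78 ± 0.29 (adjusted p = 4.1e-08), and the URE-GMP libraries lay above those of WT-GMP by 0.37 ± 0.22, which was not called. Tfeb is the factor best known for driving lysosomal genes. A pair of intergenic regions upstream of Hexa opened from near nothing. At chr9:59534842-59535208 the libraries were at 0.184, 0.286 and 0.161 CPM in WT-LSK and 4.81, 6.23 and 1.87 in WT-GMP, a rise of 4.41 ± 0.54. At chr9:59537761-59538056 they were at 0.315, 0.163 and 0.201 and 5.52, 5.04 and 2.1, a rise of 4.16 ± 0.50. An intronic Ap3s1 region near Atg12 rose by 3.78 ± 0.27, from 0.495 ± 0.107 to 6.64 ± 0.961 CPM. Promoters that opened were those of Tfec, 1.70 ± 0.23, Cd68, 1.36 ± 0.21, Ctsz, 1.08 ± 0.16, and an internal Tfe3 start site, 1.20 ± 0.21, beside the Hmgb1-ps5 region within Ctss.

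Few regions closed. A Npc1 intronic region went from 3.65, 3.43 and 4.42 CPM in WT-LSK to 0.753, 0.567 and 0.369 in WT-GMP, a log2 fold change of -2.81 ± 0.32 (adjusted p = 2.8e-06). A Psap intronic region (chr10:60289992-60290826) went from 11.3, 9.59 and 11.3 to 2.84, 2.81 and 3.55 CPM, a log2 fold change of -1.80 ± 0.19, and did not differ by the call between genotypes. A second promoter region of Tfeb (chr17:47739088-47739827) fell, from 12.3 ± 2.23 to 4.8 ± 1.09 CPM (-1.37), while the main one did not change by the call.

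The C/EBP letters TTGCNNAA, searched on both strands, stood in 33 of the 129 distal regions (25.6%), against 20.4% of all distal regions, and C/EBP factors are known to act with PU.1 in granulocyte and monocyte progenitors. Of these 33, 18 rose and 3 fell from WT-LSK to WT-GMP, with a median of 1.68. Of the 96 without them, 32 rose and 3 fell, with a median of 0.44. Across all distal regions, 23.7% rose and 18.6% fell. The split by these letters was not made over all distal regions, so whether it is particular to these genes was not tested. The RUNX letters AACCACA stood in 16 of the 182 regions (8.79%), against 17.3% of all regions.

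Other genes of the same systems were counted in the same way, and their shares are to be read against the 13.6% higher and 23.9% lower of all regions in LSK and the 15.6% and 24.1% in GMP. Within 10 kb of 29 further genes for lysosomal hydrolases and membrane proteins lay 126 regions, of which 9 rose and 28 fell in LSK (7.14% and 22.2%), and 11 rose and 26 fell in GMP (8.73% and 20.6%). Around 17 genes for subunits of the proton pump that acidifies lysosomes lay 67 regions, with 8 higher and 16 lower in LSK (11.9% and 23.9%) and 11 and 14 in GMP (16.4% and 20.9%). A list of 19 genes held mTORC1, the kinase complex that senses nutrients at the lysosome, its regulators and the MiT/TFE gene Mitf. Around these lay 57 regions, with 3 higher and 14 lower in LSK (5.26% and 24.6%) and 2 and 16 in GMP (3.51% and 28.1%). Around 32 further autophagy genes lay 94 regions, with 4 higher and 11 lower in LSK (4.26% and 11.7%) and 7 and 8 in GMP (7.45% and 8.51%), and none of their 41 promoter regions was called in either cell type, against 11.5% and 13.0% of all promoter regions.

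The limit of 10 kb decides membership at the edge. Just inside it, the regions of Sqstm1, Wipi1 and Ctsd at 9803, 9879 and 9902 bp had log2 fold changes of 0.48, 0.46 and -0.97 in LSK and 2.18, 0.31 and -0.40 in GMP. Just outside, regions near Laptm5, Uvrag and Npc2 at 10094, 10166 and 10187 bp had -1.10, 0.30 and 0.76 in LSK and -0.82, 0.45 and 0.26 in GMP.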

How the data were processed

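ATAC-seq libraries of 4 groups with 3 libraries each were analysed. The authors deposited a table of raw counts per merged region for GRCm38; per the labels it was made with cutadapt, Bowtie2, Genrich, bedtools and featureCounts. The methods state that duplicates, and chromosomes outside the primary set, were filtered out and that regions were called per group and merged, so a region open in 1 group could enter the table. The sources do not say if a count stands for a fragment or for each of its ends. Region starts were read as 0-based and shifted by 1.

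Groups and replicate numbers came from the labels. All 121336 regions were tested together with edgeR 4.0.16 in R 4.3.3 (TMM factors, quasi-likelihood test, Benjamini-Hochberg adjustment, common biological coefficient of variation 0.185); a filter on low counts removed none. Total counts of 23072701 to 62204826 per library set the counting precision, and intervals cover counting error only. Replicates are mice, so p-values measure the spread between mice. Alternatives were RLE factors, library size, TMM on promoter regions, loess offsets, offsets from a lowess on GC content (span 0.3), a mean CPM of at least 2, glmTreat, DESeq2 1.42.0, other windows, a replicate block and leaving out each library. Deviations of same-numbered libraries from their group means correlated between WT-GMP and URE-GMP (0.122, 0.236 and 0.442). They also did between WT-LSK and WT-GMP (0.235, 0.267 and 0.272) and between URE-LSK and URE-GMP (0.127, 0.327 and 0.187). Between WT-LSK and URE-LSK they did not for every number (0.161, 0.0616 and -0.113). The main fit held no term for these numbers, and only the replicate block used them. Its p-values therefore ignore any pairing of same-numbered libraries.

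The 38 genes, the comparison lists and the motifs were chosen with earlier results of these data known. Named regions were the promoter with the most counts for 10 chosen genes, the called and non-overlapping regions with the largest fold changes (5 in each direction per genotype comparison, 4 from LSK to GMP), every promoter called between genotypes, and the 4 largest interaction calls in each direction. Other members were named after their values were seen, to describe each gene.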

Additional observations from a re-analysis of the deposited data

Results flagged for a closer look

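At 11 named regions the genotype effect differed between LSK and GMP by the interaction term of the edgeR fit, with 3 libraries in each group. Values are the log2 fold change of URE against WT in GMP minus that in LSK.

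At 5 of them the call held without any single library. These were the region 9526 bp upstream of Map1lc3b (3.54, adjusted p = 0.00031, 3.22 to 3.87 without single libraries), the Hexa region 8319 bp into the gene (2.54, adjusted p = 0.0046), the Tfec promoter (1.45, adjusted p = 0.0082), the region 6464 bp upstream of Laptm5 (-1.65, adjusted p = 0.010) and the region 7621 bp upstream of Psap (-1.24, adjusted p = 0.0023). At the Map1lc3b, Hexa and Tfec regions the signal fell in URE-LSK, and in URE-GMP the values were -0.81, -0.87 and -0.60. The Psap region rose in URE-LSK, with -0.03 in GMP.

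At the other 6 the call rested on single libraries. The Hexa region 5159 bp into the gene had 2.44 (adjusted p = 0.024) and lost the call without URE-LSK replicate 1, URE-LSK replicate 3 or URE-GMP replicate 2, with an adjusted p of up to 0.071. The Sqstm1 region 9803 bp from the start had 1.70 (adjusted p = 0.022), with 0.091 without WT-LSK replicate 3. The region in the Atg12 untranslated exon had 2.54 (adjusted p = 0.023) and lost the call without WT-LSK replicate 1, URE-LSK replicate 1 or URE-GMP replicate 1. The Wipi1 region 3795 bp upstream had -1.43 (adjusted p = 0.020) and lost it without WT-LSK replicate 1, WT-LSK replicate 3 or URE-LSK replicate 1. The Npc1 region 2333 bp into the gene had 1.44 (adjusted p = 0.046) and lost it in 9 of the 12 fits without a library. The Lipa region 528 bp into the gene had -1.15 (adjusted p = 0.032) and lost it in 7 of 12.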

How the results depend on the processing

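Counts of called regions moved by more than 1.5 times with the fold, adjusted p or level threshold, glmTreat, the window and 1 library. Without a fold threshold 107 regions were called in LSK, 115 in GMP and 96 from WT-LSK to WT-GMP, and when a mean CPM of 2 was required, which left 136 regions, 38, 33 and 39. Within 5 kb of start sites, 116 regions, the counts were 34, 35 and 40, and within 20 kb, 282 regions, 93, 96 and 99. Between cell types the genotype effect differed at 10 regions with an adjusted p under 0.01, 3 with glmTreat, 8 within 5 kb and 45 within 20 kb. Leaving out 1 library at a time gave 58 to 62 in LSK, 57 to 63 in GMP, 58 to 63 from WT-LSK to WT-GMP and 12 to 29 for the difference between cell types, the lowest without URE-LSK replicate 1. With a replicate block the counts were 61, 62, 62 and 26, and the block changed 1 call of a named region, the Lipa region 528 bp into the gene, at -0.996 in GMP. With RLE size factors, library size, TMM on promoter regions or DESeq2 the 3 main counts kept within 1.5 times.

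The distal minus promoter median turned positive with loess offsets (0.0407 in LSK and 0.124 in GMP), with GC content offsets (0.120 and 0.0481) and with these and a replicate block (0.115 and 0.0539). In LSK it was -0.216 when a mean CPM of 2 was required. The cause was not tested. Leaving out libraries gave -0.411 to -0.229 in LSK and -0.332 to -0.209 in GMP. The median over all regions was itself 0.14 in LSK and 0.06 in GMP, and 0.28 and 0.21 with GC content offsets.

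Of 2227 alternatives for named regions, 2099 kept direction and call, 66 lost a call, 20 gained one and 42 changed sign, the last all in comparisons where the region was not called. The Ctsb promoter turned in LSK with library size (-0.0104), TMM on promoter regions (-0.0709) and loess offsets (-0.0889), and in GMP with the same (-0.0639, -0.0802 and -0.114), GC content offsets (-0.0333, and -0.0302 with the block) and the required mean CPM of 2 (-0.0225). The Tfe3 promoter turned in LSK with library size (-0.0527), TMM on promoter regions (-0.114), loess (-0.0829) and GC content offsets (-0.0929, and -0.0966 with the block) and ranged from -0.0236 to 0.157 without single libraries, and in GMP it turned to -0.00881, -0.0332, -0.0166, -0.0127 and -0.00342 in the same order and ranged from -0.0548 to 0.208. The Lamp1 promoter turned in LSK with GC content offsets (-0.0556, and -0.0559 with the block) and the Lamp2 promoter with TMM on promoter regions (-0.00401). The Tfec promoter turned in GMP with GC content offsets (0.0625, and 0.0558 with the block). In GMP the Psap region 7621 bp upstream turned with RLE size factors (0.0203), loess (0.0529) and GC content offsets (0.112, and 0.113 with the block) and DESeq2 (0.0161) and ranged from -0.113 to 0.0353 without single libraries. In LSK, GC content offsets turned the Wipi1 region 3795 bp upstream (0.146, and 0.107 with the block), and loess (1.09) and GC content offsets (0.279, and 0.270 with the block) that in the Atg12 untranslated exon, which ranged from -0.816 to 0.182 without single libraries. The Lipa region turned in LSK with TMM on promoter regions (-0.0446) and ranged from -0.0304 to 0.247, and the Sqstm1 region 9803 bp from the start from -0.107 to 0.832.

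Low regions rest on few counts, and a URE level near 0.1 CPM leaves the size of a fall uncertain. Counts of regions cannot separate changes in cell composition from changes within cells.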

Other observations

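Among the 129 distal regions, the share called in LSK was 28.1% of the 32 regions between 0.5 and 2 kb from a start site, 54.1% of the 37 regions between 2 and 5 kb and 45.0% of the 60 regions between 5 and 10 kb. From WT-LSK to WT-GMP, 14, 17 and 19 regions of these bins rose and 0, 3 and 3 fell. Over all distal regions within 10 kb of any start site, 38.7% were called in LSK. From WT-LSK to WT-GMP 23.8% of those rose and 14.8% fell. By the place of their middle, 28 of 85 intronic regions and 19 of 57 intergenic regions fell in LSK, and 1 of 14 in coding exons did, against 23.9% of all regions. The whole table was not split into these distance bins or by place. No pattern particular to these genes can thus be read from the counts. The distances are those between a region and the nearest start site of the member gene, and other genes lie closer to some of the regions. The 13 distal regions with the RUNX letters held 3 of the 6 distal regions that closed from WT-LSK to WT-GMP. They also held 2 of the 50 that opened, the Tfeb intron with the largest opening (4.78) among them. No such count was made over all regions with these letters. These are descriptions without a test.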
